A study of Homo sapiens with 6 samples.

Results

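The 10 genes described here encode transcription factors that act when blood progenitors become T cells: GATA3, TCF7, LEF1, BCL11B, BCL11A, RUNX1, RUNX3, SATB1, TOX and MYB. They were taken by gene name from the 58735 genes of the deposited tables. All 10 were found and all 10 had enough counts to be tested. RNA was measured in MOLT-3, an established human line of T-cell acute lymphoblastic leukaemia known for its activated NOTCH1, so every library came from a single leukaemia line and not from normal thymocytes. One group of 3 libraries was made from cells treated with DMSO, the solvent, and the other group of 3 from cells treated with compound E, an inhibitor of the gamma-secretase complex that cuts NOTCH receptors and so releases their active part. The comparison was made to find genes under NOTCH1 control that could bear on the response of these leukaemia cells to chemotherapy. Its dose and duration were not given in the sources used here. Whether the replicates came from separate cultures is left unsaid in the labels. The p-values therefore rest on the spread among these libraries alone, and that spread could be technical.

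In the thymus, NOTCH signalling in an incoming progenitor switches on TCF7 and GATA3, which open and occupy T-cell genes. BCL11B then closes off other fates at commitment, while progenitor factors such as SPI1, LMO2 and BCL11A are turned down. LEF1 and TCF7 are related DNA-bending proteins that bind the same core sequence, RUNX1 and RUNX3 share a DNA-binding Runt domain and the partner CBFB, SATB1 folds chromatin in thymocytes, TOX is needed for CD4 T-cell development, and MYB acts from the stem cell through the thymocyte stages. Several of them, among them LEF1, BCL11B, RUNX1, GATA3 and MYB, are altered by mutation or rearrangement in T-cell leukaemia.

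The stretches of DNA just upstream of annotated start sites are shown for 4 of the genes, chosen because they span the range of responses: GATA3 and SATB1 rose most, TCF7 had the smallest change of the 10, and MYB fell. Each line gives the 250 bases before a RefSeq start on GRCh38.p14, 5′ to 3′ on the gene's own strand, and none of these windows holds an annotated exon in GENCODE release 29. Capitals mark a match to one of 5 core motifs, which were searched on both strands. The GATA3 window is chr10:8045083-8045332 on the plus strand, the SATB1 window chr3:18444119-18444368 on the minus strand, the TCF7 window chr5:134123368-134123617 on the plus strand and the MYB window chr6:135181058-135181307 on the plus strand. The windows of SATB1 and TCF7 lie before starts inside the annotated span of the gene. Another SATB1 window without an annotated exon, chr3:18445593-18445842, lies outside that span. Among the SATB1 windows, only the printed one holds a match.
GATA3: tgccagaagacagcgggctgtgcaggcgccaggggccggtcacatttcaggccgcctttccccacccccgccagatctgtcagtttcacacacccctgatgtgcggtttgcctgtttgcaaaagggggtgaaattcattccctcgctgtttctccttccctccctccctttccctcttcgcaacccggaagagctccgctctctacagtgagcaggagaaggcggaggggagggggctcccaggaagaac
SATB1: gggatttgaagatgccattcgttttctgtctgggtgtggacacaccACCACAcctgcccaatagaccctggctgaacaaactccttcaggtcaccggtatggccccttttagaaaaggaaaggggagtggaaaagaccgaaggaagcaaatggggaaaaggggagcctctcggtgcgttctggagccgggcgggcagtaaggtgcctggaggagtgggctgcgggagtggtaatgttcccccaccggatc
TCF7: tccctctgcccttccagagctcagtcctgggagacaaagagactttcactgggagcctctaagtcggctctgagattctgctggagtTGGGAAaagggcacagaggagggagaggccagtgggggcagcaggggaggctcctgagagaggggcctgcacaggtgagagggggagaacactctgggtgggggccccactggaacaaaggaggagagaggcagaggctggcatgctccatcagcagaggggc
MYB: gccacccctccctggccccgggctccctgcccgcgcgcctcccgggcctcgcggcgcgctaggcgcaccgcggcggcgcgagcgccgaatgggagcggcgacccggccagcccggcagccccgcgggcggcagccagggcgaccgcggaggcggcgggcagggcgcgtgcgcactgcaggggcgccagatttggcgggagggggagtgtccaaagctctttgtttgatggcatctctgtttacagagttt

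The motifs were TGGGAA, the core bound by RBPJ, through which NOTCH acts on DNA; TGTGGT, the RUNX core; AGATAA, the GATA core; CTTTGA, the TCF/LEF core; and CACGTG, the E-box of MYC and MAX. Start sites of 9 of the genes were in the table, with 23 windows in all. The RBPJ core stood in 4 of these 23 windows (17.4%), against 20.8% of all 35116 windows of the same length; the matches were in windows of TCF7, LEF1, BCL11A and RUNX3. In the TCF7 window printed above it lies at TGGGAA. The RUNX core stood in 5 windows (21.7%), against 11.0% of all windows, in GATA3, LEF1, BCL11A, RUNX3 and SATB1, and the capitals ACCACA in the SATB1 window are that core read on the opposite strand. The E-box stood in 2 windows, of GATA3 and BCL11B (6.34% of all windows), and the TCF/LEF core in 1 window, of GATA3 (11.2% of all). The GATA core, held by 9.17% of all windows, had no match in the 23. The printed GATA3 and MYB windows hold none of the 5 cores. Unlike the printed windows, some windows with a match hold annotated exons. The only LEF1 window lies wholly in exon sequence of LEF1. The GATA3 window with the RUNX core and the E-box lies wholly in exon sequence of GATA3-AS1. A match describes the letters and is not evidence of binding.

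Library totals ran from 17316138 to 19845114 counts, and 26408 to 27576 genes had a count in a library. Levels are given as FPKM, counts scaled for gene length and library depth, which can be compared between genes, or as CPM, a count relative to the library total corrected by TMM factors. Genes directly controlled by NOTCH moved with the labels: DTX1 averaged 171.7 CPM with DMSO and 7.06 CPM with compound E, and HES1 and NOTCH3 also fell (log2 fold changes of -2.16 and -3.03). All 8 T-cell markers were tested, and they summed to 2302 to 2349 CPM with DMSO and 2121 to 2168 CPM with compound E, with 2 called higher and 5 lower. The share called was 87.5%, against 38.3% of all tested genes. Markers of other blood cells were low in every library. B-cell markers summed to 15.0 to 16.6 CPM with DMSO and 14.2 to 16.0 CPM with compound E, mostly CD79A, with MS4A1 and PAX5 at 0 counts in every library. Of the 3 B-cell markers that could be tested, BLNK, an adaptor of the B-cell receptor, was called lower, from 0.685 ± 0.143 to 0.293 ± 0.232 CPM (SD, n = 3 each; adjusted p = 0.0385, edgeR) with groups that overlapped, and CD79A did not pass. Myeloid markers summed to at most 3.06 CPM with MPO and S100A8 at 0, erythroid markers to at most 2.02 CPM with HBB at 0, and NK markers to at most 6.43 CPM with NCR1 at 0.

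With compound E, 8 of the 10 factors rose and 2 fell, and all 10 changes were under 2-fold. GATA3, a zinc finger factor that drives T-cell specification, rose most, 1.67-fold, followed by SATB1 (1.57-fold), RUNX1 and LEF1 (both 1.36-fold), TOX (1.21-fold), BCL11B (1.18-fold), BCL11A (1.15-fold) and TCF7 (1.09-fold). MYB fell 1.29-fold and RUNX3 fell 1.22-fold. All 10 were called by the edgeR quasi-likelihood test at a Benjamini-Hochberg adjusted p under 0.05, where 38.3% of the 16926 tested genes were called, 18.9% higher and 19.4% lower. The median log2 fold change was 0.25 over the 10 genes and -0.00336 over all tested genes. In 9 of the 10 the DMSO and compound E libraries did not overlap, which held for 46.8% of all tested genes. High expression goes with more calls, and 9 of the 10 had a mean of at least 50 CPM. Among the 4800 genes at that level, 58.7% were called, 34.3% higher and 24.4% lower, a background chosen after the data were seen. Reads of the 10 genes together took 0.467% to 0.472% of all counts in the DMSO libraries and 0.539% to 0.558% in the compound E libraries. Bulk RNA cannot tell a change per cell from a change in the make-up of the culture.

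**Figure D1:**
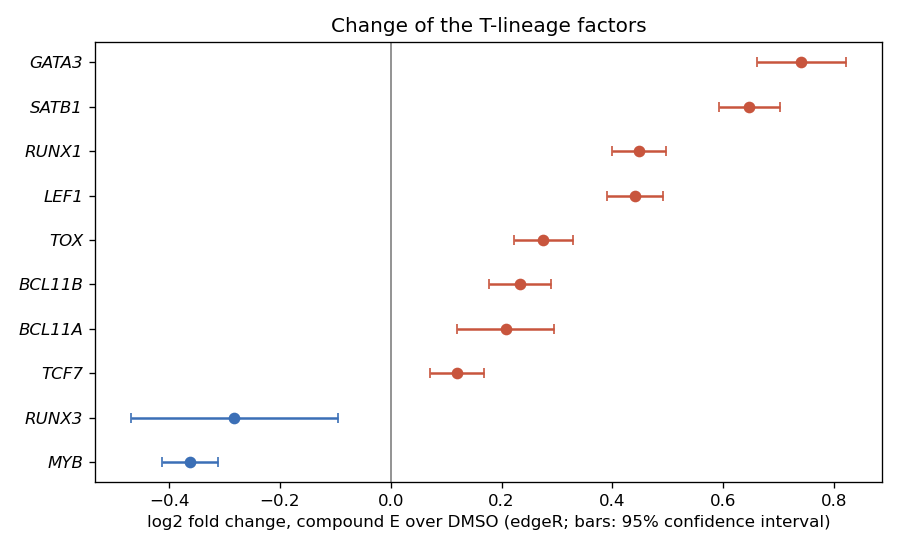
Log2 fold change of each factor with compound E over DMSO (horizontal axis, edgeR, 3 libraries per group), with points for the estimate and bars for its 95% confidence interval, red for higher and blue for lower. GATA3 at 0.74 and SATB1 at 0.65 lie farthest to the right, MYB at -0.36 and RUNX3 at -0.28 to the left, and the interval of RUNX3 is the widest.

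TCF7 and LEF1 are HMG-box proteins that bend DNA and can recruit beta-catenin or the repressive TLE proteins. TCF7 (ENSG00000081059, GRCh38 chromosome 5, 134114711 to 134151865, plus strand) stood at 154.8, 155.2 and 153.9 FPKM in DMSO replicates 1 to 3 and at 167.2, 163.3 and 176.0 FPKM in compound E replicates 1 to 3. Every compound E library was above every DMSO library, but the groups lay close together. The means were 155 ± 0.631 and 169 ± 6.52 FPKM (SD, n = 3 each), and the log2 fold change of 0.12 ± 0.0242 (SE) had a 95% interval of 0.071 to 0.17 and an adjusted p of 1.02e-04 in edgeR. It is the smallest of the 10 changes, and 37.0% of tested genes changed by less. TCF7 has long forms that bind beta-catenin and short forms from internal starts that cannot, and gene-level counts add them up.

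LEF1 (ENSG00000138795, chromosome 4, 108047545 to 108168956, minus strand) moved more. It stood at 130.6, 134.6 and 134.8 FPKM with DMSO and 178.2, 180.1 and 187.4 FPKM with compound E. The groups were far apart, with means of 133 ± 2.35 and 182 ± 4.86 FPKM (SD, n = 3 each). Its log2 fold change was 0.44 ± 0.0249 (SE; adjusted p = 7.17e-18, edgeR), and 82.2% of tested genes changed by less. The third HMG-box factor, TOX (ENSG00000198846, chromosome 8, 58805418 to 59119208, minus strand), is named for the thymus and is also the factor that marks exhausted T cells. It stood at 76.3, 75.6 and 77.0 FPKM with DMSO and 91.6, 93.4 and 93.2 FPKM with compound E, again without overlap. The means were 76.3 ± 0.672 and 92.8 ± 0.981 FPKM (SD, n = 3 each), and the log2 fold change was 0.28 ± 0.0264 (SE; adjusted p = 2.96e-11, edgeR).

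GATA3 (ENSG00000107485, chromosome 10, 8045378 to 8075203, plus strand) is required for the earliest T-cell progenitors and later for CD4 cells and type 2 helper cells. Its level was 20.9, 21.6 and 21.0 FPKM with DMSO and 34.9, 34.0 and 37.9 FPKM with compound E. All DMSO libraries lay close together and all compound E libraries lay well above them. The means were 21.2 ± 0.390 and 35.6 ± 2.07 FPKM (SD, n = 3 each), from 1263 to 1489 counts per DMSO library and 2119 to 2464 per compound E library. The log2 fold change was 0.74 ± 0.0399 (SE; 95% interval 0.66 to 0.82; adjusted p = 1.56e-18, edgeR), and 92.6% of tested genes changed by less.

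BCL11B (ENSG00000127152, chromosome 14, 99169287 to 99271524, minus strand) is the zinc finger repressor whose activation marks commitment to the T lineage. It stood at 32.7, 32.0 and 32.1 FPKM with DMSO and 38.2, 37.5 and 38.7 FPKM with compound E. The groups did not overlap, and the means were 32.3 ± 0.344 and 38.1 ± 0.617 FPKM (SD, n = 3 each). The log2 fold change was 0.23 ± 0.0276 (SE; adjusted p = 5.01e-09, edgeR). BCL11A (ENSG00000119866, chromosome 2, 60450520 to 60555154, minus strand), its relative in progenitors and B cells and the repressor of fetal globin, had the lowest FPKM of the 10 with the gene length of the table. With the longest coding transcript as length, RUNX3 was lowest, at 4.22 FPKM against 7.70 for BCL11A with DMSO and 3.48 against 8.92 with compound E. By the deposited FPKM, BCL11A stood at 2.31, 2.21 and 2.39 FPKM with DMSO and 2.62, 2.68 and 2.71 FPKM with compound E, from 1063 to 1142 and 1222 to 1301 counts per library. The libraries did not overlap, and BCL11A was called higher, with a log2 fold change of 0.21 ± 0.0434 (SE; adjusted p = 1.65e-04, edgeR). That call was lost on log2(FPKM + 1) with limma-trend (adjusted p = 0.0739).

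RUNX1 (ENSG00000159216, chromosome 21, 34787801 to 36004667, minus strand) is the Runt factor of blood stem cells and early thymocytes. It stood at 42.7, 42.9 and 42.4 FPKM with DMSO and 58.2, 57.8 and 59.5 FPKM with compound E. No pair of libraries crossed, and the means were 42.7 ± 0.260 and 58.5 ± 0.896 FPKM (SD, n = 3 each). The log2 fold change was 0.45 ± 0.0239 (SE; adjusted p = 1.24e-18, edgeR). RUNX3 (ENSG00000020633, chromosome 1, 24899511 to 24965121, minus strand), the Runt factor of CD8 T cells that silences CD4, was low and scattered. It stood at 3.25, 4.61 and 4.30 FPKM with DMSO and 3.32, 3.13 and 3.58 FPKM with compound E. DMSO replicate 1 lay inside the range of the compound E libraries, so the groups overlap. The log2 fold change was -0.28 ± 0.0923 (SE; 95% interval -0.47 to -0.096), with an adjusted p of 0.0135 in edgeR. The call did not hold with DESeq2 (adjusted p = 0.1004) or without DMSO replicate 2 (log2 fold change -0.17, adjusted p = 0.196 in edgeR), DMSO replicate 3 (0.0579) or compound E replicate 2 (0.0611).

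SATB1 (ENSG00000182568, chromosome 3, 18345387 to 18445588, minus strand) anchors chromatin loops in thymocytes and is needed for their maturation. It stood at 19.4, 19.2 and 19.4 FPKM with DMSO and 30.4, 30.9 and 29.9 FPKM with compound E. Replicates were close and the groups were far apart. The means were 19.3 ± 0.0852 and 30.4 ± 0.486 FPKM (SD, n = 3 each), and the log2 fold change was 0.65 ± 0.0268 (SE; adjusted p = 3.60e-22, edgeR), larger than that of 90.6% of tested genes.

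MYB (ENSG00000118513, chromosome 6, 135181315 to 135219173, plus strand), an oncogene in T-cell leukaemia and a driver of progenitor growth, went the other way. It stood at 134.8, 136.6 and 138.7 FPKM with DMSO and 105.2, 107.4 and 108.0 FPKM with compound E. Every compound E library was below every DMSO library. The means were 137 ± 1.93 and 107 ± 1.46 FPKM (SD, n = 3 each), and the log2 fold change was -0.36 ± 0.0246 (SE; adjusted p = 1.86e-15, edgeR). MYB was called lower under all 18 alternative fits.

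**Figure D2:**
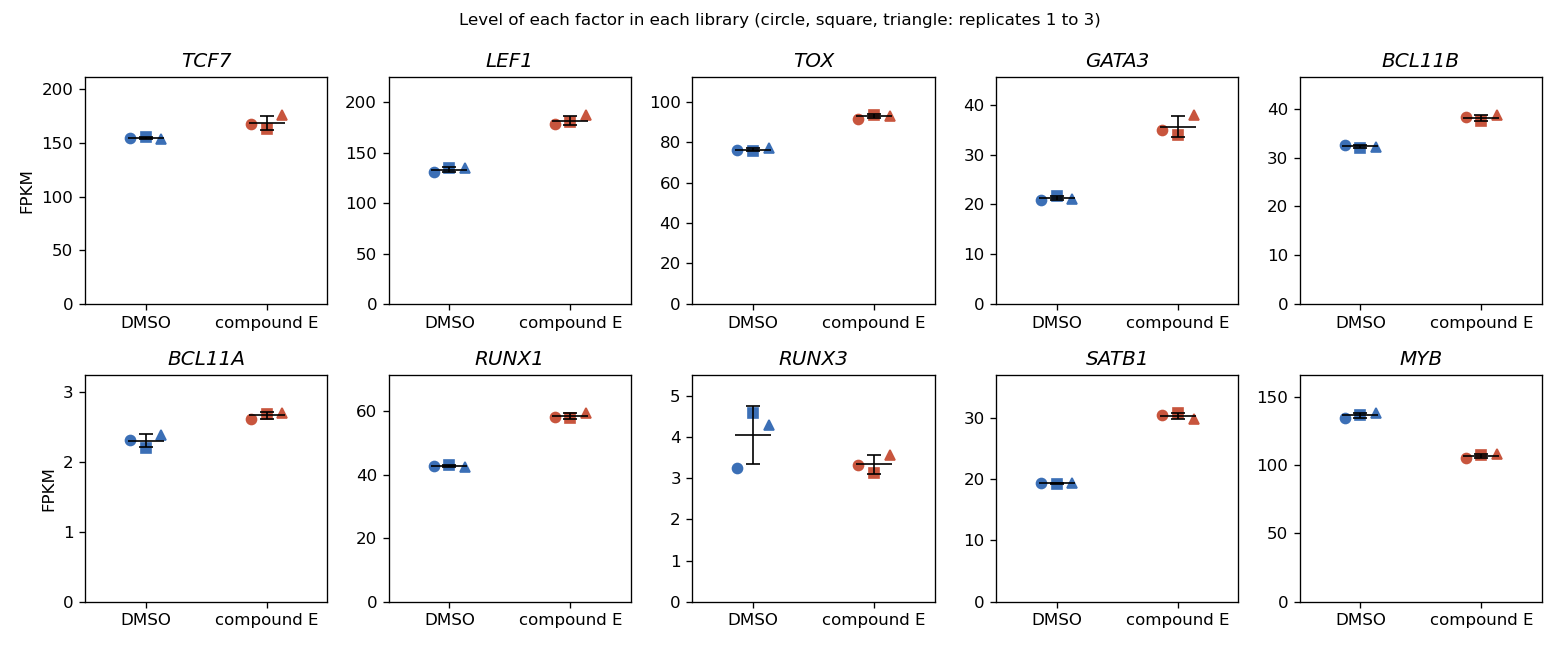
FPKM of each factor in each library (vertical axis, starting at 0, its range set per gene), with DMSO in blue and compound E in red, a circle, square and triangle for replicates 1 to 3, and the mean with its SD in black. The groups are apart in 9 panels, and in the RUNX3 panel DMSO replicate 1 at 3.25 FPKM lies among the compound E libraries at 3.13 to 3.58 FPKM.

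Per length, the factors spanned a wide range within the one line. With DMSO the order from high to low was TCF7, MYB, LEF1, TOX, RUNX1, BCL11B, GATA3, SATB1, RUNX3 and BCL11A, and no neighbours in that order shared a value, although MYB was only 1.03 times LEF1. With compound E, LEF1 came first, then TCF7, MYB, TOX, RUNX1, BCL11B, GATA3, SATB1, RUNX3 and BCL11A, and the libraries of BCL11B and GATA3 overlapped. Among the 1553 genes that the deposited table assigns to a transcription factor family, TCF7 ranked 8 by mean FPKM with DMSO and 7 with compound E. LEF1 went from 11 to 5, RUNX1 from 38 to 27, BCL11B from 66 to 52, GATA3 from 113 to 59 and SATB1 from 130 to 76. MYB went from 9 to 12. RUNX3 ranked 571 and 651, and BCL11A 755 and 717. FPKM rests on the gene length in the table, which merges all transcripts and is 10063 bases for TCF7 against 3330 for its longest coding transcript. With the longest coding transcript as the length, an alternative added after the data were seen, 8 of the 10 changed place in the DMSO order. TCF7 then stood at 467 FPKM with DMSO and 510 with compound E, and LEF1 at 206 and 280, so the first place of LEF1 with compound E depends on the length used.

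The balance within each related pair was compared as a ratio per library, by an exact two-sided permutation test whose smallest possible p with 3 against 3 is 0.1. The size of a ratio rests on the gene lengths in the table, but its log2 difference between the groups does not. With the longest coding transcript as length, TCF7 stood above LEF1 in both groups (467 against 206 FPKM with DMSO, 510 against 280 with compound E). The ratio of TCF7 to LEF1 was 1.19, 1.15 and 1.14 with DMSO and 0.938, 0.906 and 0.939 with compound E. All compound E ratios were below all DMSO ratios (exact permutation p = 0.1, adjusted over 3 pairs 0.15). RUNX1 over RUNX3 was 13.1, 9.32 and 9.86 with DMSO and 17.5, 18.5 and 16.6 with compound E. Here too the groups were apart, upwards (exact permutation p = 0.1, adjusted 0.15), from means of 10.8 ± 2.07 to 17.5 ± 0.916 (SD, n = 3 each). BCL11B over BCL11A was 14.1, 14.5 and 13.4 with DMSO and 14.6, 14.0 and 14.3 with compound E. These ratios overlapped (exact permutation p = 0.6, adjusted 0.6). With 3 libraries per group the test could not go under 0.05 for any pair, so it cannot decide whether a balance shifted. The RUNX1 to RUNX3 ratio also rests on RUNX3, whose low and scattered levels are given above.

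**Figure D3:**
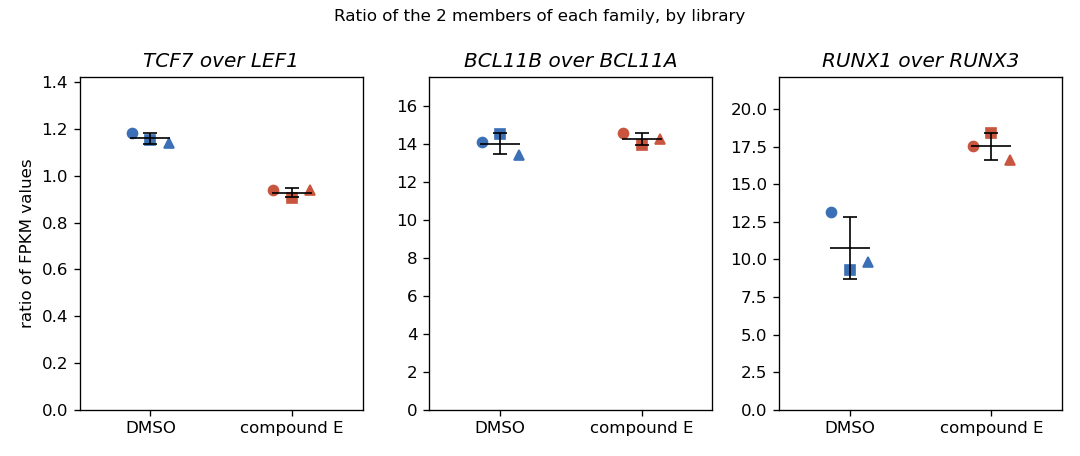
Ratio of FPKM values in each library for 3 related pairs (vertical axes start at 0), with DMSO in blue and compound E in red, a circle, square and triangle for replicates 1 to 3, and the mean with its SD in black. TCF7 over LEF1 is lower with compound E, RUNX1 over RUNX3 is higher, and BCL11B over BCL11A overlaps between 13.4 and 14.6.

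Relatives of the factors that share their DNA-binding domain moved in both directions. Of 14 such genes, 8 could be tested, and 2 rose and 1 fell, with a median log2 fold change of -0.03. The share called, 37.5%, is that of tested genes in general (38.3%). TOX2, a relative of TOX, rose from 23.7 ± 1.66 to 34.7 ± 0.950 CPM (SD, n = 3 each; log2 fold change 0.55, adjusted p = 1.02e-09, edgeR). RUNX2, the Runt factor of bone, was called higher at very low levels, 0.806 ± 0.264 and 1.52 ± 0.370 CPM (adjusted p = 0.0157, edgeR). Its groups overlapped, and the call was lost in 8 of the alternative fits, DESeq2 among them (adjusted p = 0.109). TCF7L1, TCF7L2, TOX4, MYBL1 and MYBL2 did not pass the test. GATA1, GATA2, GATA4, GATA5, GATA6 and TOX3 had at most 12 counts in a library, so GATA3 was the one member of its 6-gene family with more than a trace of reads.

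Genes for proteins that the factors work with rose more often than they fell, most by little. Of 27 partners and cofactors, 26 were tested, 15 rose and 1 fell, with a median log2 fold change of 0.13. The share called, 61.5%, is near the 58.7% of genes at 50 CPM or more, against 38.3% of all tested genes. At 50 CPM or more, 34.3% of genes were called higher and 24.4% lower. Over all tested genes these shares were 18.9% and 19.4%. Some of the partners, TLE1 and ZFPM2 among them, lie below 50 CPM. The 2 changes of at least 2-fold were in TLE1, a corepressor of TCF7 and LEF1, which rose from 3.09 ± 0.279 to 6.77 ± 0.253 CPM (adjusted p = 2.95e-08, edgeR), and in ZFPM2, a GATA cofactor, which rose from 0.588 ± 0.310 to 1.43 ± 0.264 CPM (adjusted p = 0.00285, edgeR). MTA2 of the NuRD complex, which BCL11B and GATA3 recruit, rose with a log2 fold change of 0.34 (adjusted p = 3.42e-13, edgeR). AES, a short TLE relative, rose by 0.32 (adjusted p = 1.30e-11, edgeR) and the GATA cofactor ZFPM1 by 0.52 (adjusted p = 9.25e-08, edgeR). CBFB, the shared partner of RUNX1 and RUNX3, rose by 0.15, as did CTNNB1, which encodes beta-catenin. BCL9L, which ties beta-catenin to its coactivators, fell (log2 fold change -0.21, adjusted p = 0.00501, edgeR). That call, the only fall in the list, was lost in 5 of the alternative fits. DESeq2 and the limma-trend fits on FPKM were among them.

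Regulators of progenitors and other lineages, which the T-cell factors are known to oppose, were mostly scarce. Of 17 such genes, 9 had too few counts to be tested. In each library SPI1, KIT and ZBTB16 had 3 counts or fewer, and MEF2C, HOXA9 and PAX5 had 0 in all 6. Among the 8 tested, 3 fell and 1 rose; over all tested genes 38.3% were called. CEBPB, a myeloid factor, fell from 42.6 ± 4.05 to 8.06 ± 1.11 CPM (SD, n = 3 each; log2 fold change -2.40 ± 0.0830, adjusted p = 8.71e-25, edgeR). IRF8, a factor of dendritic and B cells, fell from 10.8 ± 1.51 to 3.79 ± 0.320 CPM (adjusted p = 1.31e-12, edgeR), and LMO2, a stem-cell factor and T-cell oncogene, fell from 9.90 ± 0.350 to 5.97 ± 0.829 CPM (adjusted p = 2.53e-06, edgeR). ID2, the inhibitor of E proteins that favours innate lymphoid cells, rose from 1.29 ± 0.426 to 2.43 ± 0.404 CPM (adjusted p = 0.00277, edgeR). The median log2 fold change of the 8 was -0.59.

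Of 14 factors of later T-cell lineages, 8 were tested, 3 rose and the other 5 did not pass the test. That share, 37.5%, is also close to the 38.3% of all tested genes. BCL6, the factor of follicular helper cells, rose from 8.24 ± 0.401 to 12.0 ± 1.41 CPM (SD, n = 3 each; adjusted p = 4.34e-05, edgeR), and RORA rose by a log2 fold change of 0.32 (adjusted p = 0.00210, edgeR), a call lost on log2(FPKM + 1) with limma-trend. SOX4, an HMG-box factor of early thymocytes and the most abundant of this list, averaged 1018 CPM with DMSO and 1013 CPM with compound E and did not pass the test. ZBTB7B, which fixes the CD4 fate, had 0 counts in every library.

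Genes that these factors are known to act on in T cells changed in both directions. All 26 were tested, 12 rose and 10 fell, and the median log2 fold change was -0.02. The 22 called genes were 84.6% of the list, where 38.3% of all tested genes and 58.7% of those at 50 CPM or more were called. The recombinase genes RAG1 and RAG2 and the coreceptor genes CD4, CD8A and CD8B were among those that rose, with log2 fold changes of 1.53, 0.79, 1.23, 0.30 and 1.71. Their levels differed widely: mean CPM with DMSO and compound E was 546 and 1583 for RAG1, 7.76 and 18.1 for CD4, and 2.70 and 8.81 for CD8B. THEMIS, needed for thymocyte selection, rose by 0.97 and the adhesion receptor CD2 by 0.94. IL7R, the interleukin-7 receptor chain, fell by 2.43 on the log2 scale, CD7 by 0.73, PTCRA, the pre-T-cell receptor chain, by 0.69, and CD3D by 0.34. This list shares CD2, CD3D, CD5, CD7, CD247 and other genes with the T-cell markers above.

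**Figure D4:**
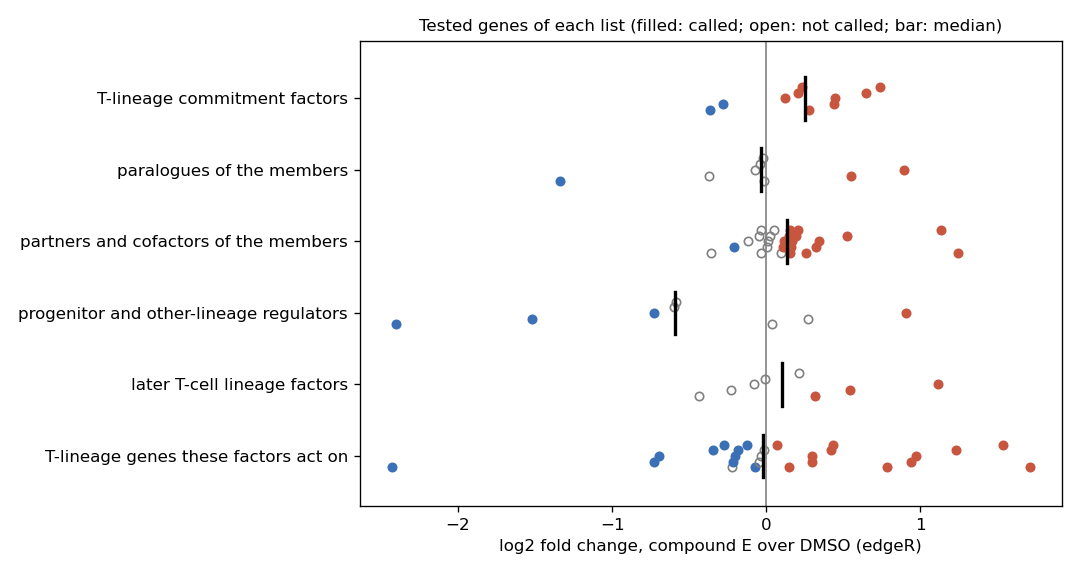
Log2 fold change with compound E over DMSO (horizontal axis, edgeR) of each tested gene in 6 lists, filled red for called higher, filled blue for called lower and open for not called, with a black bar at the list's median. The median is 0.25 for the 10 factors and -0.59 for the regulators of other lineages, and the T-lineage genes spread to both sides of 0.

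Within 50 kb of the 10 genes lay 38 other annotated genes, of which 22 overlapped a factor and 13 could be tested. Of these 13, 4 rose and 3 fell, so 7 were called, in a data set where 38.3% of all tested genes were. The library kit described in the labels does not mark strand. In the stretch that a gene shares with an antisense partner, their reads therefore cannot be told apart. That stretch is the whole of MYB-AS1, whereas LEF1-AS1, AC090152.1 and SATB1-AS1 extend beyond the factor. LEF1-AS1 (chromosome 4, 108167525 to 108256836, plus strand), which overlaps the start of LEF1, stood at 11.3, 9.79 and 11.1 CPM with DMSO and 16.5, 15.7 and 15.1 CPM with compound E. It rose without overlap of the groups, as LEF1 did (log2 fold change 0.55 ± 0.0882, SE; adjusted p = 2.35e-06, edgeR). MYB-AS1 (chromosome 6, 135195083 to 135195995, minus strand), inside MYB, stood at 5.70, 4.39 and 3.76 CPM with DMSO and 2.41, 2.88 and 2.07 CPM with compound E. It fell, as MYB did (log2 fold change -0.92 ± 0.181, SE; adjusted p = 7.38e-05, edgeR), on 39 to 110 counts per library. AC090152.1, antisense to TOX at its start, rose by a log2 fold change of 0.22 ± 0.0601 (SE; adjusted p = 0.00260, edgeR). SATB1-AS1, antisense to SATB1 at its start, was higher in all compound E libraries but did not pass the test (log2 fold change 0.18 ± 0.0910, SE; adjusted p = 0.127, edgeR), beside the larger rise of SATB1. GATA3-AS1, antisense to GATA3, had at most 4 counts in a library, and the overlapping antisense genes AL109767.1 of BCL11B, AC009970.1 of BCL11A and AL445471.1 of RUNX3 at most 18, 15 and 7.

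**Figure D5:**
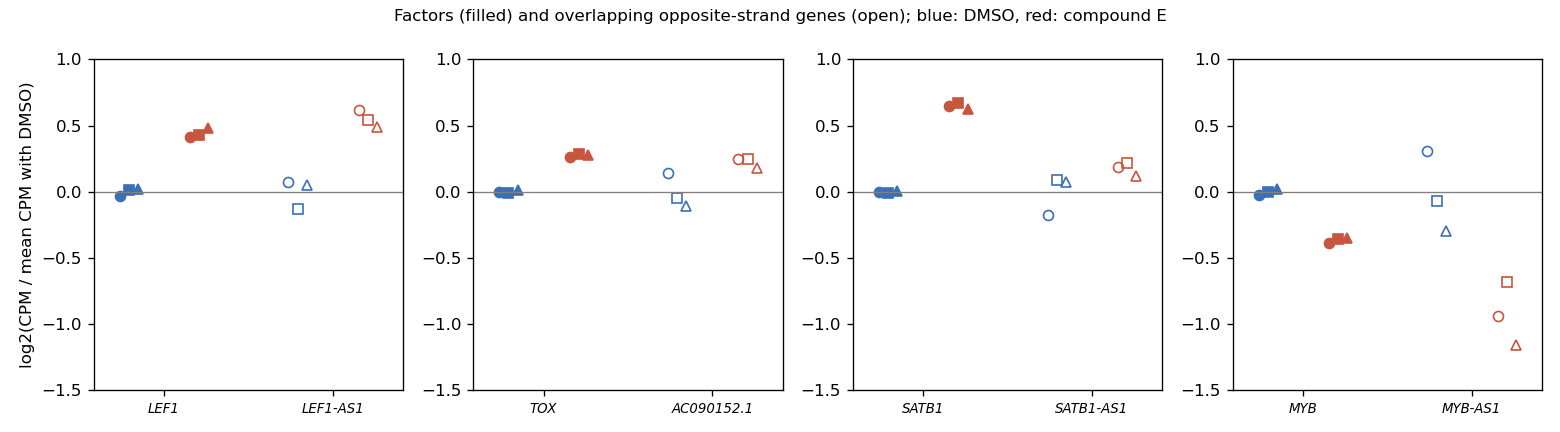
Log2 of CPM over the mean CPM with DMSO (vertical axis) for LEF1, TOX, SATB1 and MYB (filled) and for the overlapping gene on the opposite strand (open), one symbol per library, with DMSO in blue, compound E in red and a circle, square and triangle for replicates 1 to 3. LEF1-AS1 is up and MYB-AS1 down in every compound E library, and the antisense genes scatter more than the factors.

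Protein-coding neighbours on the same chromosome moved little. SKP1, whose span overlaps TCF7 on the opposite strand, rose by a log2 fold change of 0.11 (adjusted p = 0.0110, edgeR), near the 0.12 of TCF7. PPP2CA, farther along, rose by 0.10 (adjusted p = 0.0182, edgeR). Both calls were lost on log2(FPKM + 1) with limma-trend and when single libraries were left out. TBC1D5, whose span overlaps SATB1 on the same strand, fell (log2 fold change -0.17, adjusted p = 7.16e-04, edgeR) while SATB1 rose. HADH, beside LEF1, fell (log2 fold change -0.16, adjusted p = 1.51e-04, edgeR) while LEF1 rose. TAF3, beside GATA3, and SETD4, beside RUNX1, did not pass the test.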

How the data were processed

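Polyadenylated RNA was taken with poly-T beads and libraries were prepared using an NEBNext Ultra kit, per the labels' protocols. The submitters' processing notes name HISAT2 2.0.5, featureCounts 1.5.0-p3 and DESeq2 1.16.1. Genome build, strand setting and handling of reads with several matches were not given in the sources used here. For this series the authors deposited whole-number counts per gene and a table of FPKM values, each a count over gene length and a scaled library depth. All 58735 identifiers had the start, end, strand and name of GENCODE release 29, so coordinates are given on GRCh38.

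The counts were fitted with edgeR 4.0.16 in R 4.3.3: filterByExpr left 16926 genes, libraries were scaled by TMM, and treatment was the only term of the quasi-likelihood F-test. Benjamini-Hochberg adjustment ran over all 16926, and genes under 0.05 were called. The standard error is the log2 fold change over the square root of F. The 10 genes and the lists were chosen with earlier results of these data known. All 10 factors are named; each list names up to 4 called genes with the smallest p and those with a 2-fold change, and neighbours are named where they overlap or are called. A few genes taken by this rule are left unreported, though counts include them. Other genes named in the accounts of the lists were chosen after their values were seen. Replicate pairs differed by more than sampling noise. The fit was tested on simulated data. Alternatives were other scalings and filters, DESeq2 1.42.0, limma 3.58.1 (voom, and trend on log2 FPKM with pseudocounts of 1 and 0.1; log2 values were computed here from the deposited FPKM), the replicate number as a block, protein-coding genes alone and each library left out. Promoter windows came from a RefSeq table, and figures were drawn with matplotlib 3.10.9.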

Additional observations from a re-analysis of the deposited data

How the results depend on the processing

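Of the 10 factors, 7 kept direction and call under all 18 alternative fits: GATA3, SATB1, RUNX1, LEF1, TOX, BCL11B and MYB. TCF7 lost its call once, in limma-trend on log2(FPKM + 1) without a filter (adjusted p = 0.0545), BCL11A in all 3 FPKM fits, and RUNX3 in 7 of the 18. The number of factors called lower was therefore 1 in DESeq2 and in the 3 limma-trend fits on FPKM, against 2, and 1 to 2 when a library was left out. Factors called higher numbered 6 to 8. Over all genes, 6484 were called, 4517 by DESeq2 and 4002 by limma-trend without a filter, and 5671 to 6068 when a library was left out. Without a filter, limma-trend called 10 of the partners and cofactors, against 16, and 1 of the later T-cell factors, against 3. The ratio of BCL11B to BCL11A, with a log2 difference of 0.027, ran from -0.0039 without DMSO replicate 3 to 0.053 without DMSO replicate 2. Within 100 kb, 11 neighbours were called, against 7 within 50 kb. With the longest coding transcript as length, 8 factors changed place. Scalings moved the median of all genes by at most 0.0156 and no factor's direction. With the replicate number as a block, 6138 genes were called, with 8 factors higher and 2 lower. Same-numbered libraries did not deviate together (correlations -0.0191 to 0.0103). With 3 libraries per group, these values cannot tell whether same-numbered libraries shared a culture or batch. RUNX3 had 257 to 417 counts per library, the fewest of the 10; whether depth bears on its call was not tested.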

Other observations

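The families to which the factors belong moved in both directions. Of the 1553 genes with a transcription factor family in the deposited table, 1043 were tested, and edgeR called 240 higher and 194 lower. Over all tested genes, 18.9% were called higher and 19.4% lower. The family counts include the factors themselves, so they partly repeat the changes given above. In the HMG family, that of TCF7, LEF1 and TOX, 11 of 32 tested genes rose and 6 fell. SOX5, a repressor of the SOX branch, fell by 1.47 on the log2 scale (adjusted p = 5.16e-21, edgeR), and HMGB2, an abundant chromatin protein of dividing cells, rose by 0.53 (adjusted p = 8.80e-21, edgeR); both were chosen after their values were seen. In the C2H2 zinc finger family of BCL11A and BCL11B, 106 of 504 rose and 60 fell. All 3 Runt genes were called, RUNX1 and RUNX2 higher and RUNX3 lower. The groups of RUNX2 and RUNX3 overlapped, and their calls were lost in 8 and 7 of the alternative fits.

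The genes whose profile over the 6 libraries lay closest to a factor were named among 10107 protein-coding candidates, by the root mean square distance of centred log2 CPM. This was done for GATA3, SATB1 and RUNX1, the called factors with the largest absolute log2 fold changes. For GATA3 the closest genes were FBXL12 (0.0339), SYNE3 (0.0357) and E2F2 (0.0390). For SATB1 they were ARL6IP1 (0.0119), ITM2A (0.0156) and MFHAS1 (0.0219), and for RUNX1 FAM122B (0.0152), CXCR4 (0.0169) and NINJ2 (0.0180). Each of these 9 genes was higher with compound E, which follows from choosing them for likeness to factors that rose. The libraries and the treatment are shared by all profiles, so these distances only describe likeness.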
